A study of Homo sapiens with 6 samples.

Results

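The genes described here move glucose into the beta cell and decide how much of it is held there as a phosphate. They are 9 in number and were taken by symbol from a table of 60611 genes. They comprise the transporters SLC2A1, SLC2A2 and SLC2A3, the hexokinases HK1 and HK2, the glucose-6-phosphatase subunits G6PC2 and G6PC3, and the regulatory enzymes PFKFB2 and PFKFB3. RNA sequencing of EndoC-BH5, a line of human beta cells labelled wild type, gave 6 libraries. In 3 libraries the cells had been given interferon gamma together with interleukin 1 beta, and in 3 they had been given vehicle. The comparison asked how the line responds to these inflammatory cytokines. The labels used here state neither dose nor duration, and the groups differ in no other label. All libraries come from 1 line, and the labels leave it unsaid whether batches were cultured apart. The p-values therefore describe spread among these libraries, part of which may be technical.

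Beta cells read glucose by burning it. Glucose enters through facilitative transporters of the GLUT family, is phosphorylated by a hexokinase and then feeds glycolysis, whose yield of ATP drives insulin release. The step can be undone, because a glucose-6-phosphatase in the endoplasmic reticulum returns the sugar to free glucose. Further down, PFKFB enzymes make and break fructose-2,6-bisphosphate, the strongest activator of phosphofructokinase. High-affinity hexokinases are usually kept very low in mature beta cells, so that phosphorylation follows the glucose level.

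The libraries held 13689972 to 16175364 counts in the cytokine group and 5871481 to 15894082 in the vehicle group, the lowest being vehicle replicate 1. Levels are given as CPM, the count of a gene scaled to a common library size with TMM factors that also correct for composition. The interferon-response gene IRF1 was 61.3-fold higher in cytokine libraries. Beta-cell markers were present, with all 8 genes of the list above 0 and summed levels of 13607 to 14249 CPM in cytokine libraries and 9960 to 10591 CPM in vehicle libraries. IAPP, at 8238 CPM with cytokines and 3997 CPM with vehicle, contributed most to the higher sum. PCSK1 was also higher, at 1108 CPM with cytokines and 661 CPM with vehicle (edgeR, adjusted p = 1.3e-15). NKX6-1 rose by 0.12 on the log2 scale (edgeR, adjusted p = 0.027). INS, PDX1, SLC30A8, ABCC8 and KCNJ11 were lower with cytokines, by -0.14 to -1.11 on the log2 scale (edgeR, adjusted p of 0.0094 or less). Alpha-cell markers, most of all TTR, summed to 1926 to 2080 CPM in cytokine libraries and 1883 to 2039 CPM in vehicle libraries. The 4 leukocyte markers summed to 20.9 to 22.5 CPM in cytokine libraries and 5.24 to 6.08 CPM in vehicle libraries, nearly all of it CD68, while PTPRC, CD3E and LYZ had at most 8 counts in a library. The 4 fibroblast markers summed to 12.4 to 13.8 CPM in cytokine libraries and 3.21 to 4.09 CPM in vehicle libraries, mostly PDGFRB, while COL1A1, COL1A2 and COL3A1 had at most 12 counts. Their part in the results below was not tested.

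Of the 9 genes, 6 had enough counts to be tested, and 5 of these changed at an adjusted p under 0.05 (edgeR, adjusted over all genes tested). HK1, G6PC3 and SLC2A1 rose with cytokines, and G6PC2 and PFKFB2 fell. PFKFB3 did not pass the test. SLC2A2, SLC2A3 and HK2 had at most 8 counts in any library and were not tested. Over the whole table, 57.1% of 17863 tested genes passed the same test, 28.3% higher and 28.8% lower, so a change as such was common in this comparison. The cytokine and vehicle libraries did not overlap in 5 of the 6 tested genes, and in 61.0% of all genes tested. In bulk RNA, fewer expressing cells and less RNA per cell cannot be told apart.

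**Figure D1:**
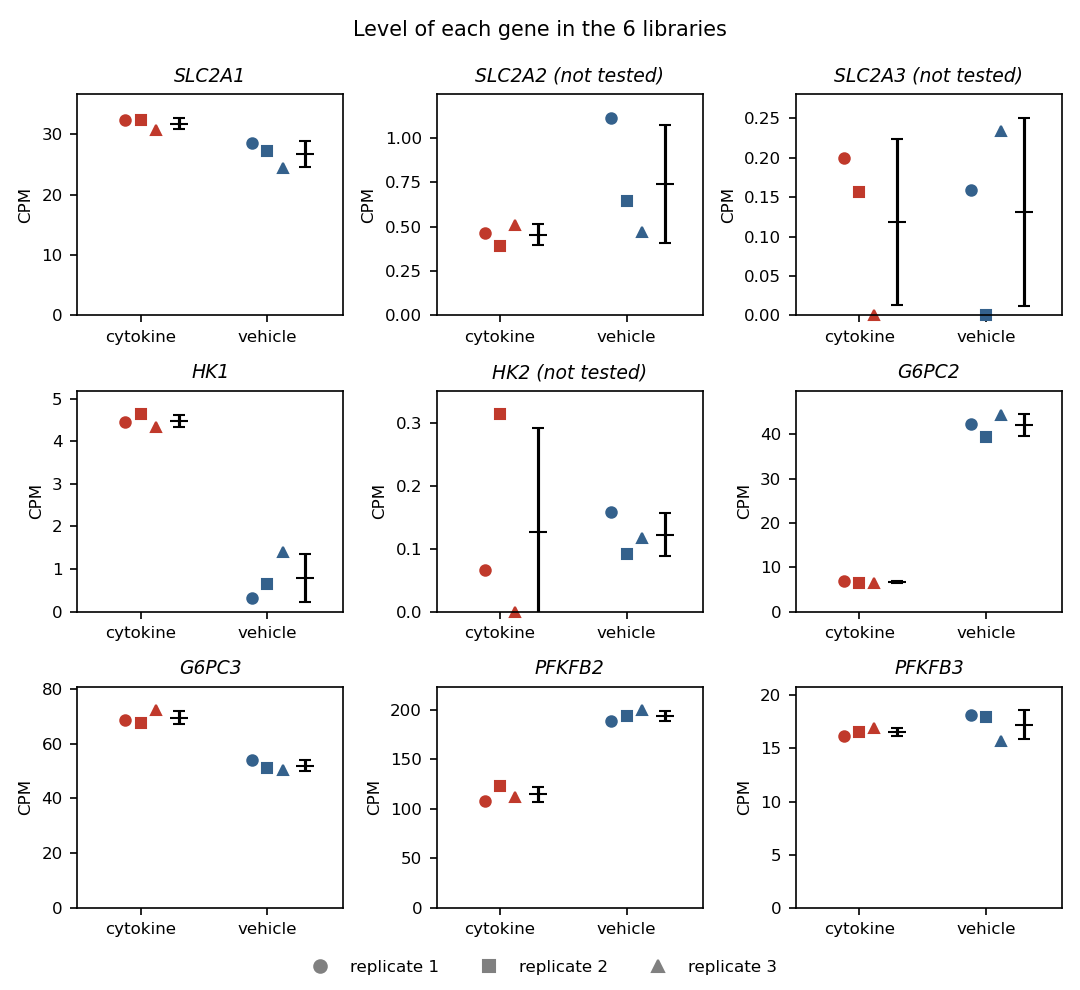
CPM (TMM scaling, linear axes from 0) of each gene in the 3 cytokine and 3 vehicle libraries, with black bars for the mean and SD of each group; the lower SD bar of HK2 in the cytokine group ends at the axis. The cytokine libraries of G6PC2 sit between 6.52 and 6.86 CPM, below vehicle libraries between 39.4 and 44.3 CPM, while those of HK1 sit between 4.35 and 4.64 CPM, above vehicle libraries between 0.318 and 1.40 CPM.

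The transporters come first in the path. SLC2A1 encodes GLUT1, a high-affinity transporter that is the main glucose carrier of human beta cells. Its locus is chr1:42925375-42959176, minus strand (GRCh38, GENCODE 29, as for all loci here). SLC2A1 measured 32.3, 32.3 and 30.7 CPM in cytokine libraries, against 28.6, 27.3 and 24.4 CPM in vehicle libraries. All 3 cytokine libraries lay above all 3 vehicle libraries, though the gap between the nearest libraries was small. The mean was 31.8 ± 0.913 CPM with cytokines and 26.8 ± 2.14 CPM with vehicle (SD, n = 3 each). That is a log2 fold change of 0.28 (SE 0.0711; 95% interval 0.13 to 0.42) or 1.21-fold (edgeR, adjusted p = 0.0016). This rise depended on how libraries were scaled. With scaling by library size alone it was 0.073 on the log2 scale (edgeR, adjusted p = 0.376). It also missed the threshold without vehicle replicate 3, at 0.19 (edgeR, adjusted p = 0.0518). SLC2A1 shares 128 exon bases with the opposite-strand SLC2A1-AS1, which had at most 17 counts in a library.

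SLC2A2 encodes GLUT2, the high-capacity transporter best known from rodent islets and liver, and is found at chr3:170996348-171026750 (minus strand). It was barely detected. SLC2A2 had 7, 5 and 7 counts in cytokine libraries, against 7, 7 and 8 in vehicle libraries. Scaled to depth, these are levels of 0.466, 0.393 and 0.507 CPM with cytokines, against 1.11, 0.643 and 0.468 CPM with vehicle. The groups overlapped, because the deepest vehicle library lay below 1 cytokine library. Over each group the ratio of cytokine to vehicle was 0.712 with a 95% counting interval from 0.365 to 1.38, so neither a fall nor a small rise can be told at this depth.

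SLC2A3, at chr12:7919230-7936275 (minus strand), encodes GLUT3, a very high affinity transporter of neurons. It had 3, 2 and 0 counts in cytokine libraries, against 1, 0 and 4 in vehicle libraries. A count of 0 allows up to 0.217 CPM in cytokine replicate 3 and up to 0.276 CPM in vehicle replicate 2. Its ratio of cytokine to vehicle was 0.825 with a counting interval from 0.190 to 3.58. These few reads are also uncertain in origin. The longest coding transcripts of SLC2A3 and its neighbour SLC2A14 match at 97.0% of 2002 aligned bases, and SLC2A14 itself had 20 counts over the cytokine libraries and 10 over the vehicle libraries.

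Among the hexokinases, HK1 had the largest rise of the 6 tested genes and HK2 had at most 4 counts in a library. HK1 encodes a high-affinity hexokinase of most tissues, is among the genes that mature beta cells usually keep low, and is found at chr10:69269984-69401884 (plus strand). It had 67, 59 and 60 counts in cytokine libraries, against 2, 7 and 24 in vehicle libraries. The corresponding HK1 levels were 4.46, 4.64 and 4.35 CPM with cytokines, against 0.318, 0.643 and 1.40 CPM with vehicle. The cytokine libraries lay close together and all above the vehicle libraries, which spread widely among themselves with replicate 3 the highest. The log2 fold change was 2.21 (SE 0.248; 95% interval 1.70 to 2.72), a 4.63-fold rise to 4.48 ± 0.147 CPM with cytokines, against 0.788 ± 0.558 CPM with vehicle (SD, n = 3 each; edgeR, adjusted p = 1.3e-08). The size rested on vehicle replicate 3. Without it HK1 was 8.41-fold higher, and leaving out any other library gave 4.04-fold to 4.74-fold. Of all 17863 genes tested, 395 had a higher log2 fold change. Its level per length was low in both groups and is given with those of the other genes.

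HK2, a high-affinity hexokinase induced by insulin in muscle, is found at chr2:74833981-74893359 (plus strand). It had 1, 4 and 0 counts in cytokine libraries, against 1, 1 and 2 in vehicle libraries. The ratio of cytokine to vehicle was 1.03 with a counting interval from 0.222 to 5.20, which gives no information on HK2 at this depth. Counting intervals and limits from a count of 0 cover counting error only.

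RefSeq (GRCh38.p14) lists 7 promoter windows for HK1, each running from 250 bases before to 50 after a start site. The window shown is the only 1 of 17 windows of these genes that holds the interferon gamma response motif GAS (TTCNNNGAA). It is shown because interferon gamma was 1 of the cytokines given and HK1 had the largest rise of the 6 tested genes. It lies at chr10:69334364-69334663 on the plus strand. Capitals mark the GAS match, which begins 63 bases before the start site, and matches to a relaxed NF-kappaB motif (GGGNNNNNCC).
HK1 promoter: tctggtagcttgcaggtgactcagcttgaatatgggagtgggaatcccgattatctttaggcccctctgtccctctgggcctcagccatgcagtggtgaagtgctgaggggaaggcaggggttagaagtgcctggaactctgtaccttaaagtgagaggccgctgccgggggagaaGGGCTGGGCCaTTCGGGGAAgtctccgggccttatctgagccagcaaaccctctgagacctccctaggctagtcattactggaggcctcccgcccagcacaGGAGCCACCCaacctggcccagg
Among all 35116 promoter windows of the table, 7.66% hold GAS and 58.7% hold the relaxed NF-kappaB motif. Gene counts do not say which start site of HK1 was used, and a match is not a binding site.

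The glucose-6-phosphatase subunits moved in opposite directions. G6PC2 encodes the islet form of the catalytic subunit, which opposes glucose phosphorylation, and is found at chr2:168901240-168910000 (plus strand). Counts of G6PC2 were 103, 83 and 90 in cytokine libraries, against 267, 429 and 757 in vehicle libraries. Its levels were 6.86, 6.52 and 6.52 CPM with cytokines, against 42.4, 39.4 and 44.3 CPM with vehicle. The groups were far apart and each was tight. With cytokines 15.7% of the vehicle level was left, a log2 fold change of -2.67 (SE 0.0854; 95% interval -2.84 to -2.49; edgeR, adjusted p = 8.2e-21). Over 14 other ways of processing the fall lay between -2.87 and -2.61. Of all genes tested, 28 had a lower log2 fold change than G6PC2. The gene SPC25 spans G6PC2 on the opposite strand but shares no exon base with it.

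G6PC3 encodes the broadly expressed form, known for its role in neutrophils, and is found at chr17:44070735-44076344 (plus strand). G6PC3 measured 68.6, 67.7 and 72.1 CPM in cytokine libraries, against 54.1, 51.1 and 50.4 CPM in vehicle libraries. All cytokine libraries were higher. The mean was 69.5 ± 2.35 CPM with cytokines and 51.9 ± 2.01 CPM with vehicle (SD, n = 3 each), a log2 fold change of 0.43 (SE 0.0544; edgeR, adjusted p = 9.7e-08). With scaling by library size alone the rise was 0.23 on the log2 scale and still passed (edgeR, adjusted p = 0.0006). Against a fold of 1.5 it did not pass (glmTreat in edgeR, adjusted p = 1.0).

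Set per kilobase of exon, G6PC2 made up 12.7%, 12.3% and 11.6% of the summed G6PC2 and G6PC3 level in cytokine libraries, against 53.3%, 52.9% and 56.1% in vehicle libraries. On this scale G6PC2 was the lower of the pair in every cytokine library and the higher in every vehicle library. The vehicle order depends on the exon lengths used, 3125 bases for G6PC2 and 4551 for G6PC3, since in counts G6PC2 was below G6PC3 in every cytokine library and in every vehicle library. The sum itself was 17.4 ± 0.50 CPM per kb with cytokines and 24.8 ± 0.884 CPM per kb with vehicle (SD, n = 3 each).

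The promoters of the pair are shown because their RNAs moved apart. The G6PC2 window lies at chr2:168901041-168901340 and the first of 3 G6PC3 windows at chr17:44070423-44070722, both on the plus strand (RefSeq, GRCh38.p14). Capitals mark matches on either strand to GAS, the ISRE core (GAAANNGAAA), the relaxed NF-kappaB motif or the palindromic E-box (CACGTG).
G6PC2 promoter: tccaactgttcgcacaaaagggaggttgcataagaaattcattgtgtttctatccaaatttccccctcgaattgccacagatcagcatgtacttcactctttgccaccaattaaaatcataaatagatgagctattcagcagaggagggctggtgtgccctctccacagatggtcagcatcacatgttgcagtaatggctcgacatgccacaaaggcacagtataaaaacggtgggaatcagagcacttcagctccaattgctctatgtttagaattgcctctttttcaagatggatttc
G6PC3 promoter: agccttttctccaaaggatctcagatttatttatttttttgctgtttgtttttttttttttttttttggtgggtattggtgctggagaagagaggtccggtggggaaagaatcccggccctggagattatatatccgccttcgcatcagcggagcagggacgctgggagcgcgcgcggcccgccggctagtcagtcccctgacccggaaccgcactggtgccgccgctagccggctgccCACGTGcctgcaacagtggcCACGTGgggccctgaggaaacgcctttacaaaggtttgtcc
The G6PC2 window holds none of these letters, so nothing is in capitals. The G6PC3 window shown holds 2 E-boxes, which also contain the hypoxia element core (ACGTG). The other G6PC3 windows overlap it and hold, beside these E-boxes, 1 and 2 matches to the relaxed NF-kappaB motif. An E-box is found in 7.26% of all windows, the hypoxia element core in 21.4% and the ISRE core in 3.57%. Of the 9 genes, 7 had an entry in this table.

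PFKFB2 and PFKFB3 encode bifunctional enzymes that set the amount of the activator of phosphofructokinase. PFKFB2, the form studied most in heart, is found at chr1:207034366-207081024 (plus strand). PFKFB2 measured 108, 123 and 112 CPM in cytokine libraries, against 189, 194 and 200 CPM in vehicle libraries. All cytokine libraries lay far below the vehicle libraries. The mean was 115 ± 7.94 CPM with cytokines and 194 ± 5.18 CPM with vehicle (SD, n = 3 each), a log2 fold change of -0.77 (SE 0.0486; edgeR, adjusted p = 8.5e-14). It held under all 14 other ways of processing, from -0.97 to -0.71, and against a fold of 1.5 (glmTreat in edgeR, adjusted p = 0.00088). YOD1, a gene on the opposite strand, shares 315 exon bases with PFKFB2 and rose by 0.56 on the log2 scale (edgeR, adjusted p = 2.3e-07). The part of shared reads in the PFKFB2 value was not tested.

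PFKFB3, the form with the strongest kinase activity and a known target of hypoxia signalling, is found at chr10:6144934-6254644 (plus strand). Its levels were 16.2, 16.6 and 16.9 CPM in cytokine libraries, against 18.1, 17.9 and 15.7 CPM in vehicle libraries. The vehicle libraries enclosed the cytokine libraries. The log2 fold change of PFKFB3 was -0.030 (SE 0.0848; edgeR, adjusted p = 0.820), with a 95% interval from -0.20 to 0.14. With scaling by library size alone it was -0.23 (edgeR, adjusted p = 0.0182).

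**Figure D2:**
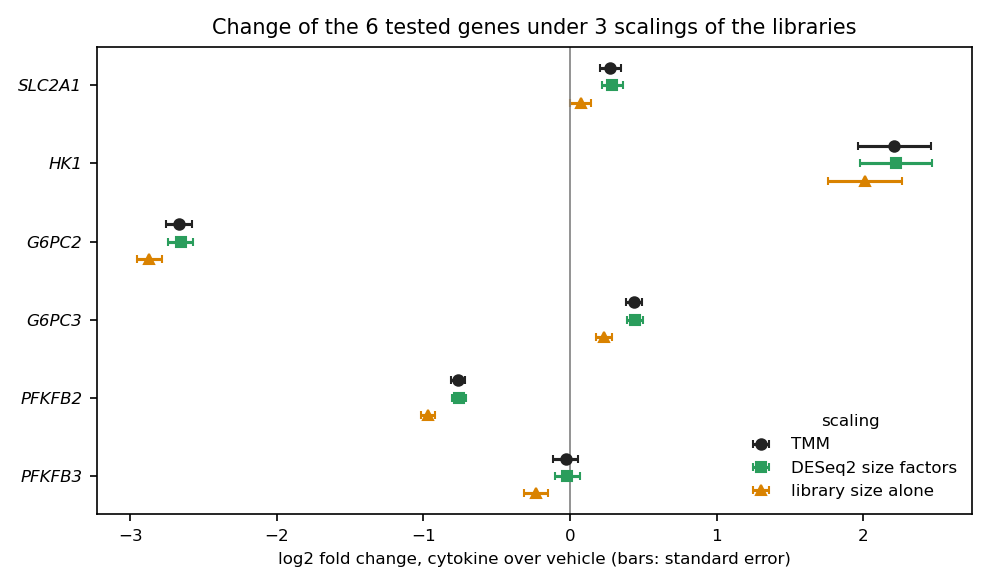
The log2 fold change of cytokine over vehicle for the 6 tested genes, with its standard error, under TMM scaling, DESeq2 size factors and library size alone. All 6 genes keep their side of 0 under all 3; with library size alone SLC2A1 moves to 0.073 and loses its call, and PFKFB3 moves to -0.23 and gains one.

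Library size alone lowered the median log2 fold change of all tested genes by -0.20, so the changes above are relative to that choice. A ratio of paired genes inside a library does not depend on it. For 5 pairs the ratio of counts was compared between groups, with a pseudocount of 0.5. With 3 libraries against 3 the smallest two-sided exact permutation p is 0.1, so none could pass 0.05. The log2 ratio of G6PC2 to G6PC3 was -3.38 ± 0.0730 in cytokine libraries and -0.30 ± 0.103 in vehicle libraries, a difference of -3.08 (SD, n = 3 each; exact permutation p = 0.1, adjusted over 5 pairs 0.125). For PFKFB3 to PFKFB2 it was -2.79 ± 0.0918 with cytokines and -3.49 ± 0.153 with vehicle, a difference of 0.71 (exact permutation p = 0.1, adjusted 0.125). In both pairs the difference was far larger than the spread between libraries.

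The pairs with nearly silent genes were less precise. The log2 ratio of HK2 to HK1 was -5.38 ± 1.6 in cytokine libraries and -2.12 ± 1.29 in vehicle libraries, a difference of -3.26 without overlap (SD, n = 3 each; exact permutation p = 0.1, adjusted 0.125). Its size is uncertain: it was -4.09 without cytokine replicate 2, -2.49 without cytokine replicate 3, -2.57 without vehicle replicate 1 and -3.85 without vehicle replicate 3. HK2 had 0 counts in cytokine replicate 3, where the pseudocount sets the ratio, and a pseudocount of 2 gave -2.71. For SLC2A1 to SLC2A2 the log2 ratio was 6.02 ± 0.201 with cytokines and 5.17 ± 0.530 with vehicle, a difference of 0.85 without overlap (exact permutation p = 0.1, adjusted 0.125). That difference was 0.56 without vehicle replicate 1 and 1.07 without vehicle replicate 3, and SLC2A2 had only 5 to 8 counts in a library. The SLC2A3 to SLC2A1 ratio overlapped between groups, with a difference of -0.52 (exact permutation p = 0.5, adjusted 0.5) that turned to 0.31 without cytokine replicate 3.

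**Figure D3:**
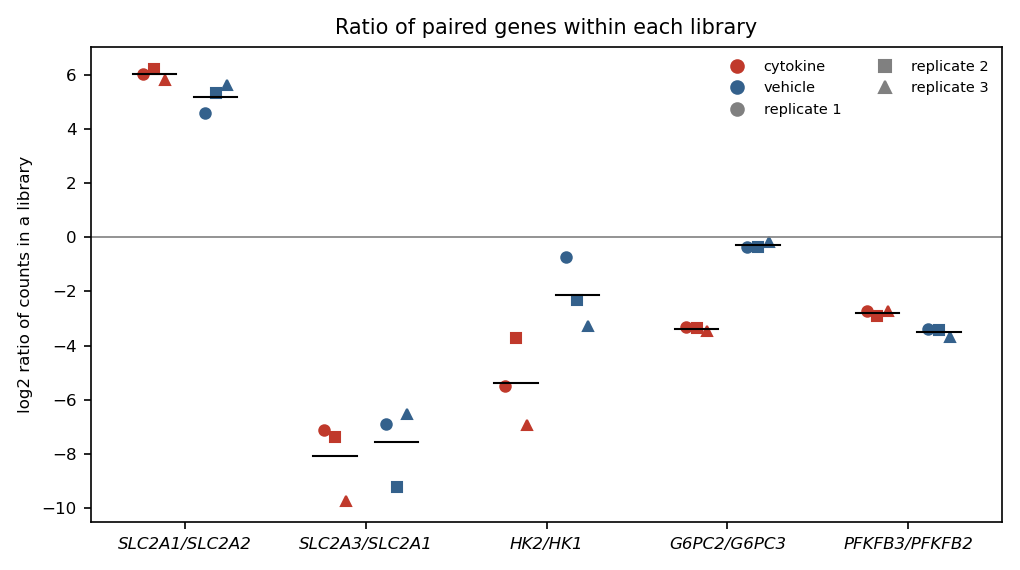
Log2 ratio of the counts of paired genes within each library (y axis), for 5 pairs (x axis); lines are group means and marker shapes are replicates. The G6PC2 to G6PC3 ratio lies near -3.38 in cytokine libraries and near -0.30 in vehicle libraries, and the groups overlap in the SLC2A3 to SLC2A1 pair only.

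Levels were set side by side between genes after division by exon length, here the union of annotated exons in GENCODE 29. This union can be longer than the transcripts present, so the orders below depend on the lengths used. In cytokine libraries G6PC3 led with 15.3 ± 0.517 CPM per kb, followed by PFKFB2 with 11.2 ± 0.779, SLC2A1 with 6.72 ± 0.193, PFKFB3 with 2.71 ± 0.0635 and G6PC2 with 2.12 ± 0.0617 CPM per kb. In vehicle libraries PFKFB2 led with 19.0 ± 0.508 CPM per kb, followed by G6PC2 with 13.4 ± 0.787, G6PC3 with 11.4 ± 0.441, SLC2A1 with 5.66 ± 0.453 and PFKFB3 with 2.82 ± 0.220 CPM per kb. No neighbours in these orders overlapped between libraries of a group. On this scale G6PC2 thus dropped to the fifth place with cytokines, against the second with vehicle. Its place above G6PC3 with vehicle depends on the exon lengths used. In CPM, G6PC2 was the lower with vehicle, at 42.0 against 51.9 for G6PC3. With cytokines PFKFB2 led in CPM, at 115 against 69.5 for G6PC3.

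The remaining genes were low in both groups. HK1 had 0.712 ± 0.0233 CPM per kb with cytokines and 0.125 ± 0.0886 with vehicle, above 12.5% of the tested genes with an annotated length in cytokine libraries and 1.54% in vehicle libraries. SLC2A2 had 0.133 ± 0.0169 CPM per kb with cytokines and 0.217 ± 0.0974 with vehicle. HK1 lay above SLC2A2 in every cytokine library, whereas the vehicle libraries of the pair overlapped. SLC2A3 and HK2 were at or below 0.0518 CPM per kb in every library and could not be ordered. SLC2A1 made up 97.8% ± 0.199 of the summed level of SLC2A1, SLC2A2 and SLC2A3 with cytokines and 96.0% ± 1.31 with vehicle (SD, n = 3 each).

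**Figure D4:**
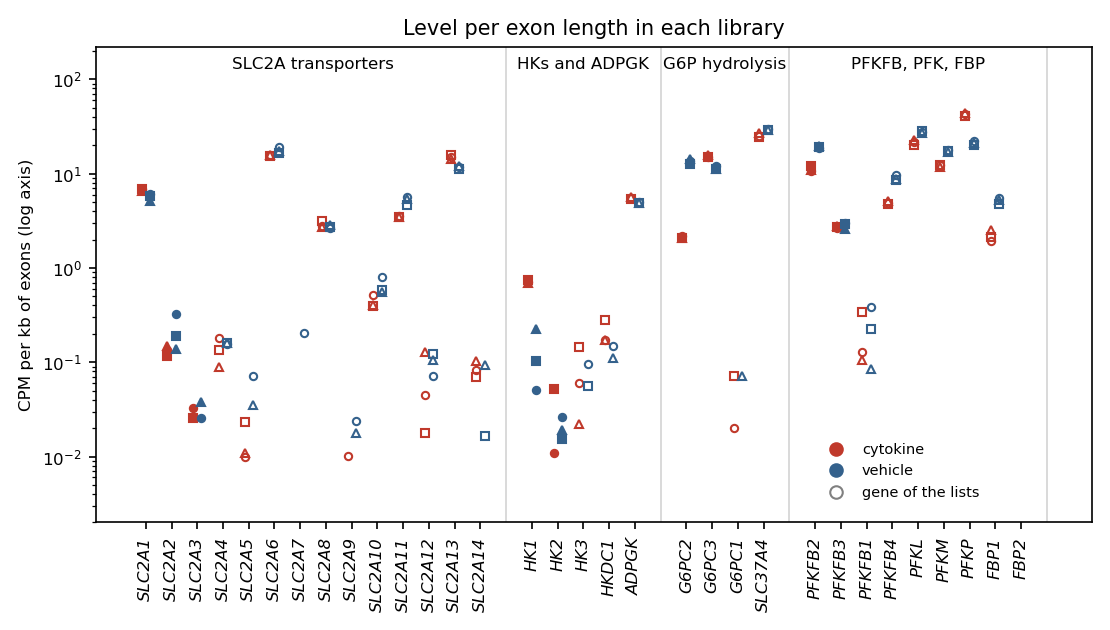
CPM per kb of exons (log axis) in each of the 6 libraries, for the 9 genes (filled markers) and related genes of the lists (open markers); marker shapes are replicates and libraries with 0 counts are not drawn. SLC2A1 lies at 6.72 CPM per kb with cytokines and 5.66 CPM per kb with vehicle, SLC2A2 and SLC2A3 lie far below it, and G6PC2 drops below PFKFB3 with cytokines.

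The wider pathway was described by 53 further genes in 4 lists, of which 37 were tested. With cytokines 12 were higher, 17 were lower and 8 did not pass, with a median log2 fold change of -0.14, against -0.018 over all genes tested. Over all 17863 genes tested, 28.3% were higher and 28.8% were lower, the background for these counts and for those of each list below. With scaling by library size alone 6 were higher and 21 lower, while 2980 of all genes were higher and 8791 lower. The lists were drawn up by role in the pathway, and their counts are a description with no test of the list.

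Of 17 other sugar transporters 8 were tested, with 2 higher, 4 lower and 2 not past the test (median log2 fold change -0.30). SLC50A1, a sugar transporter of the SWEET family, rose 1.64-fold to 82.2 ± 0.871 CPM with cytokines, against 50.2 ± 2.15 CPM with vehicle (edgeR, adjusted p = 2.5e-12). SLC2A13, which carries myo-inositol, rose 1.27-fold to 150 ± 6.90 CPM with cytokines, against 117 ± 3.81 CPM with vehicle (edgeR, adjusted p = 3.8e-07). The inositol transporter SLC5A3 fell by 0.63 on the log2 scale (edgeR, adjusted p = 3.1e-08). SLC5A2, the sodium-glucose transporter best known from kidney, fell by 1.40 on the log2 scale from few counts (edgeR, adjusted p = 0.0014). It had 7, 14 and 4 counts in cytokine libraries, against 11, 13 and 31 in vehicle libraries, and fell by 2.04 without cytokine replicate 2. Per kilobase, SLC50A1 stood at 35.1 CPM per kb with cytokines and 21.4 with vehicle. SLC2A13 stood at 14.9 CPM per kb with cytokines and 11.7 with vehicle, and both genes were above SLC2A1.

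Of 12 other genes for making and using glucose phosphate 8 were tested, with 5 higher and 3 lower (median log2 fold change 0.25). SLC37A1, a sugar-phosphate exchanger, rose 2.52-fold to 159 ± 6.43 CPM with cytokines, against 63.5 ± 2.04 CPM with vehicle (edgeR, adjusted p = 3.5e-19). H6PD, which oxidises glucose phosphate inside the endoplasmic reticulum, rose 1.42-fold (edgeR, adjusted p = 4.7e-08). The phosphoglucomutases PGM2 and PGM1 fell by 0.42 and 0.24 on the log2 scale (edgeR, adjusted p = 0.00033 and 0.0013). SLC37A4, which carries glucose phosphate to the G6PC enzymes, fell by 0.19 on the log2 scale, to 158 ± 8.01 CPM with cytokines, against 181 ± 2.93 CPM with vehicle (edgeR, adjusted p = 0.00068).

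Of 8 other genes of the fructose phosphate step 6 were tested, with 1 higher, 4 lower and 1 not past the test (median log2 fold change -0.43). PFKP, the platelet form of phosphofructokinase, rose 2.02-fold to 205 ± 7.02 CPM with cytokines, against 102 ± 5.26 CPM with vehicle (edgeR, adjusted p = 7.3e-17). FBP1, which runs the step backwards in gluconeogenesis, fell by 1.24 on the log2 scale (edgeR, adjusted p = 6.3e-09). PFKFB4, a relative of PFKFB2, fell by 0.85 (edgeR, adjusted p = 2.9e-12). The liver and muscle forms PFKL and PFKM fell by 0.36 and 0.51 (edgeR, adjusted p = 1.5e-07 and 2.4e-10). Per kilobase, PFKP made up 55.7% ± 0.0105 of the summed level of PFKL, PFKM and PFKP in cytokine libraries and 31.9% ± 1.05 in vehicle libraries (SD, n = 3 each), and the sum was 75.9 ± 2.60 CPM per kb with cytokines and 65.9 ± 1.74 with vehicle. Share and sum depend on the exon lengths used, 8926 bases for PFKL, 7318 for PFKM and 4836 for PFKP. In CPM, PFKL stood at 191 and PFKM at 89.2 with cytokines, against 246 and 127 with vehicle. SLC37A4, PFKL, PFKM and the PFKP share were chosen after their values were seen.

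Of 16 regulators that are known to act on such genes 15 were tested, with 4 higher, 6 lower and 5 not past the test (median log2 fold change -0.046). TXNIP, which restrains glucose uptake, fell by 1.86 on the log2 scale, to 1.87 ± 0.292 CPM with cytokines, against 6.82 ± 0.283 CPM with vehicle (edgeR, adjusted p = 1.6e-10). MLXIPL, the glucose-responsive factor ChREBP, fell by 0.56 (edgeR, adjusted p = 7.9e-11). HIF1A, the oxygen-sensing factor, and FOXA2, an islet factor, rose by 0.29 and 0.28 (edgeR, adjusted p = 5.5e-06 and 6.8e-05). Both calls were lost with scaling by library size alone, with log2 fold changes of 0.083 and 0.074 (edgeR, adjusted p = 0.109 and 0.231).

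**Figure D5:**
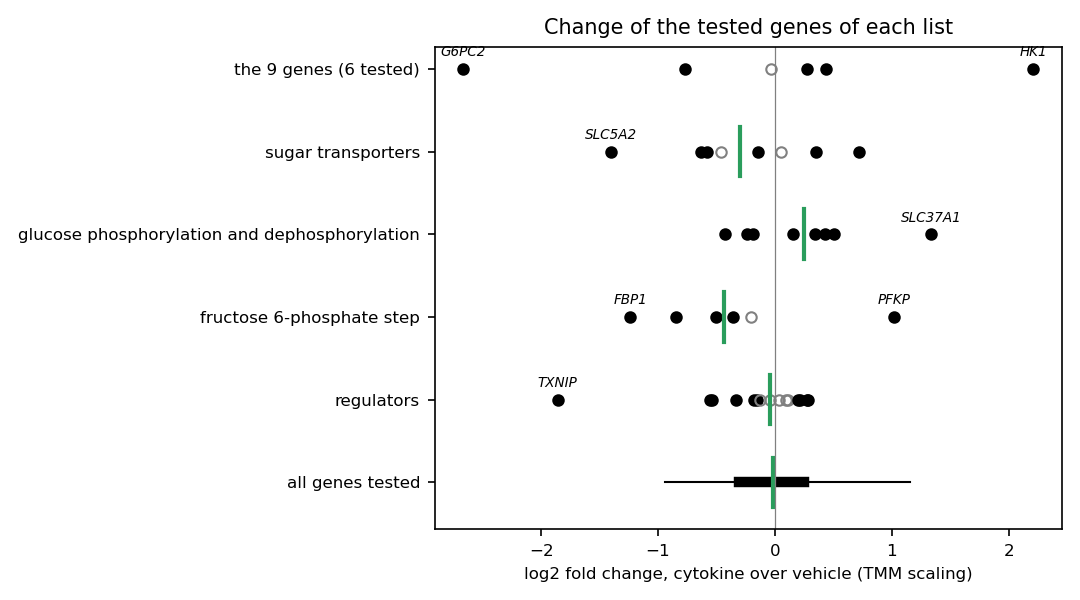
Log2 fold change of cytokine over vehicle (x axis, TMM scaling) for the tested genes of each list; filled points passed an adjusted p of 0.05 in edgeR and open points did not. Green lines are medians of the 4 lists and of all genes tested. For all genes the thin bar spans the 5th to 95th percentile (-0.94 to 1.15) and the thick bar the 25th to 75th. G6PC2 at -2.67 and HK1 at 2.21 lie outside the thin bar, as do TXNIP, SLC5A2, FBP1 and SLC37A1 of the lists.

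For G6PC2 and HK1, the tested genes of the 9 with the largest fall and rise, the most similar genes were found by the root mean square difference of centred log2 CPM over the 6 libraries. Nearest to G6PC2 were CHRNB4 at 0.0988, FAM20A at 0.161 and CHRNA3 at 0.163. Their log2 fold changes were -2.73, -2.85 and -2.34. Nearest to HK1 were HLA-G at 0.341, SAMD9 at 0.363 and GNB4 at 0.363, with log2 fold changes of 2.80, 2.32 and 2.77. HLA-G reads can be shared with near-identical HLA genes. The log2 CPM used here had a prior count of 2. A centred profile over these libraries holds mainly the group difference, so similar fold changes follow largely from the way these genes were picked. Shared regulation was not tested.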

How the data were processed

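The values that the authors deposited for each gene and library are estimated counts, unscaled, for 60611 genes, per the file headers and the values. Of the values above 0, 67.3% to 73.5% in a library lay within 0.005 of a whole number. Columns named NT were taken as vehicle, since all other count columns are named for cytokine and the replicate numbers match the titles. The same table carries the authors' log2 fold change and mean log2 CPM, an F score, a p-value and an FDR, per the file headers, which name no tool; none of these was used. Sequencing libraries were made with a directional NEBNext Ultra II kit, per the labels. The submitters' processing notes name the build GRCh38 and, with no role, the tools MultiQC 1.9, Picard 2.23.2, FastQC 0.11.9, HTSeq 0.12.4, STAR 2.7.5a and cutadapt 2.10. How strand was counted and the annotation release are not given in the sources used here.

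For the comparison, estimated counts were rounded to whole numbers and filtered with filterByExpr, which kept 17863 genes. They were scaled with TMM and tested on group with the robust quasi-likelihood test of edgeR 4.0.16 in R 4.3.3. P-values were adjusted over all genes kept (Benjamini-Hochberg, threshold 0.05). The SE is the size of the log2 fold change divided by the square root of F. The scripts were tested on simulated data. Total counts, lowest at 5871481 in vehicle replicate 1, limit the precision of levels near 1 CPM. Within a group, libraries differed by a chi-square of 1.38 to 2.48 per gene. Each library was counted once, though these values do not show that the cultures were separate. The 9 genes and the lists were chosen with earlier results of these data known. Named by rule were the 9 genes, IRF1 and another gene that is not reported here, up to 2 higher and 2 lower called genes of each list with at least 1 CPM (by size of change), and the 3 nearest patterns, of at least 5 CPM, to the genes with the largest rise and fall. Alternatives were other scalings and filters, DESeq2 1.42.0, leaving out each library, a block on replicate number, a threshold of 0.01 and a test against a fold of 1.5 (glmTreat). Exons came from GENCODE 29, promoters from RefSeq, and transcripts were aligned with blastn 2.17.0.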

Additional observations from a re-analysis of the deposited data

How the results depend on the processing

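G6PC2, PFKFB2 and HK1 kept their direction and their call under all 14 alternatives, and G6PC3 under all but glmTreat. Of the 9 genes, glmTreat against a fold of 1.5 called 1 higher and 2 lower. It called 3 higher and 4 lower of the pathway genes, and 1395 higher and 949 lower of all genes, against 5061 and 5140. Library size alone called 6 pathway genes higher, and 2980 genes higher and 8791 lower of all genes. DESeq2 with its own filter called 3365 genes lower. Leaving out each library in turn gave 2 to 3 higher of the 9 genes, a PFKFB3 log2 fold change from -0.12 to 0.025 and a SLC2A3 to SLC2A1 difference from -1.35 to 0.31. The replicate number as a block left the calls of the 9 genes at 3 higher and 2 lower with 11 higher and 18 lower pathway genes, and called 5001 genes higher and 5097 lower. Same-numbered libraries did not deviate together, with correlations of 0.012, -0.047 and -0.050. These values show no sign of pairing by number, though a weak shared batch could be missed. For the ratios inside a library no paired test was run. A pseudocount of 2 moved no ratio by more than its spread. Depth limits SLC2A2, SLC2A3 and HK2, which without a count filter had adjusted p of 0.553, 0.935 and 0.973 in edgeR.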
